A study of Mus musculus with 9 samples.

Results

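The cytosolic ribosomal proteins are the 84 genes, of 36528 listed, whose Entrez number maps to a protein-coding mouse symbol that starts with Rpl or Rps and a digit, together with Rpsa, Rplp0, Rplp1, Rplp2 and Fau. S6 kinases, pseudogenes and paralogues with a symbol ending in a lower-case l were left out. Of the 84, 49 belonged to the large subunit and 35 to the small subunit by symbol. The rule also takes 6 genes that are copies of a ribosomal protein gene or encode a binding protein by name (Rpl7l1, Rpl22l1, Rpl37rt, Rps27rt, Rps23rg1 and Rps19bp1), so 78 members are ribosomal proteins in the strict sense.

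The mRNAs of ribosomal proteins are among the most abundant transcripts of most mammalian cells, because each ribosome needs a copy of nearly every one of these proteins. The small subunit reads the mRNA, and the large subunit joins the amino acids. Their mRNAs share a tract of pyrimidines that begins at the first base, the terminal oligopyrimidine or TOP tract, through which mTOR and Larp1 hold or release their translation together. The genes have left many processed pseudogenes in the genome, and reads from their mRNAs can therefore align to several places.

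The libraries were made from RNA of brain myeloid cells sorted for Cd11b at an age of 11 to 12 months. Cd11b is a surface integrin of microglia, the resident macrophages of the brain, and of other myeloid cells. The Tau-P301L group (5 libraries, 2 female and 3 male) came from mice with transgenic tau that bears P301L, a mutation of inherited frontotemporal dementia. The wild-type group (4 libraries, 2 female and 2 male) came from their littermates without the transgene. The promoter of the transgene is not given in the sources used here. Libraries are numbered in sample order within each genotype, wild type 1 and 2 and Tau-P301L 1 and 2 being female, and the labels leave it unsaid whether every library is its own mouse. A p-value here therefore covers the spread among these samples, which may be technical.

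Libraries held 1.49 to 3.79 M reads counted in genes, of which 940 to 2148 fell on the members. A count of 3 reads, the upper limit that a count of 0 allows, stood for 0.791 to 2.01 CPM (reads scaled to a library of 1 M), counting error only. This range uses raw library totals, whereas the other CPM values are also TMM-scaled, so the scales differ somewhat. All 10 microglial markers were at 21.8 nRPKM or more in wild type, the unit being the authors' RPKM adjusted by a size factor. Their summed level was 10923 to 14198 CPM in wild type and 9303 to 15608 in Tau-P301L. Of these 10 markers 9 had genotype estimates below 0 (log2 median -0.25), 2 at an unadjusted p under 0.05 and none called by edgeR. Of 8 tested neuronal markers 7 were below 0 (median -0.35), none at that p. Of 7 tested astrocyte markers 5 were above 0 (median 0.32), none at that p. Of 6 tested oligodendrocyte markers 4 were below 0 (median -0.06), 1 at that p. The part of any of these lists in the members' values was not tested. The summed levels of neuronal markers were 142 to 251 and 127 to 283 CPM, those of astrocyte markers 314 to 415 and 314 to 669, and those of oligodendrocyte markers 508 to 705 and 326 to 1431. The T-cell and NK-cell markers Cd3e, Cd3g and Nkg7 and the globins Hba-a1, Hba-a2 and Hbb-bs had no read in any library. Counts are of uniquely aligned reads, so 0 for a gene with close copies does not show absence. Lymphocyte markers summed to 1.14 to 2.74 CPM in wild type and 0 to 2.12 in Tau-P301L. Red-blood-cell markers summed to 0.676 to 4.12 and 0.692 to 8.90 CPM. Neutrophil and monocyte markers summed to 59.3 to 78.9 and 18.7 to 234 CPM, border macrophage markers to 30.3 to 113 and 51.3 to 96.0. In these bulk samples fewer cells of a type and less RNA per cell cannot be told apart.

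The RefSeq promoter table of GRCm38.p6 held an entry for 64 of the 84 members. Where a gene has several annotated starts, the start with the longest pyrimidine run was taken. Each window below has 30 bases in the direction of the mRNA, with the start as the sixteenth base, and capitals mark the unbroken run of C or T that covers the start. The first set shows members with such a run. Capitals before the sixteenth base lie outside the annotated mRNA, whereas a TOP tract begins at its first base. A run is therefore not the same as a TOP tract.

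Fau, chr19:6057932-6057961, plus strand: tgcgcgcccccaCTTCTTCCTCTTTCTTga
Rpl14, chr9:120571502-120571531, plus strand: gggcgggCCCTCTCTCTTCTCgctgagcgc
Rps6, chr4:86857353-86857382, minus strand: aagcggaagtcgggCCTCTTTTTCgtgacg
Rps9, chr7:3704026-3704055, plus strand: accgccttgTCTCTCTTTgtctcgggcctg
Rps24, chr14:24490663-24490692, plus strand: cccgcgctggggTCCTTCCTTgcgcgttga
Rps15a, chr7:118116133-118116162, minus strand: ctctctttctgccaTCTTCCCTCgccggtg

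The next set shows the members with the highest level or the lowest genotype p-values, Rpl4, Rpl26 and Rpl23, whose annotated start is a purine, so that no run covers it.

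Rpl4, chr9:64173372-64173401, plus strand: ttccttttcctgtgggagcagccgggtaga
Rpl26, chr11:68901551-68901580, plus strand: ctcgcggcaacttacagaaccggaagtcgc
Rpl23, chr11:97782425-97782454, minus strand: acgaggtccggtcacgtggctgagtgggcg

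Across the 64 members, 24 (37.5%) had a C at the annotated start, against 15.8% of 16936 other protein-coding genes. A run of at least 5 pyrimidines over the start, bases before it included, was found in 23 members (35.9%) and in 10.1% of the other genes. The motif CTTTCC, whose matches can overlap that run, was sought around every annotated start of a gene. It lay on the mRNA strand within the 100 bases centred on any of them in 19 members (29.7%) and in 5.0% of the other genes. On the opposite strand it was found in 2 members (3.1%) and in 4.6% of the other genes. A match describes these letters only, and an annotated start can lie some bases away from the start used in these cells.

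Levels between genes were compared in nRPKM, which divides by the authors' gene length, and that need not be the mRNA length. Rps24 held 36.0 CPM in wild type on an mRNA of 525 bases but stood at 2.55 nRPKM. Rps9 held 29.8 CPM on 823 bases and stood at 5.05 nRPKM. The order of levels below therefore depends on the length used. The members lay near the middle of the detected genes and far under the microglial markers. Their median of wild-type means was 0.730 nRPKM, with the tenth percentile at 0.170 and the ninetieth at 2.71. The median of 16688 other protein-coding genes with a read was 0.486 nRPKM, and the members' median stood at percentile 57.2 of the detected protein-coding genes. Large-subunit members had a median of 0.828 and small-subunit members of 0.637 nRPKM. For scale, the microglial genes Cst3 and Cx3cr1 were at 461 and 242 nRPKM, Actb at 67.3, and the elongation factors Eef1a1 and Eef2 at 11.7 and 11.2.

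Rpl4 (chr9:64173387-64178562), a large-subunit protein that reaches into the exit tunnel for the new chain, was the highest member, and no other member's wild-type mean reached 10 nRPKM. Its 4 wild-type libraries held 26.2, 26.1, 23.8 and 29.6 nRPKM, a mean of 26.4 ± 2.39 (SD, n = 4). Next came Rplp1 (chr9:61913283-61914510), an acidic protein of the stalk that recruits elongation factors, at 9.86 ± 5.45 nRPKM, with libraries at 17.1, 5.13, 11.0 and 6.21. The lowest Rpl4 library was above the highest Rplp1 library. Rps9, a small-subunit protein near the mRNA entry channel, was at 5.05 ± 2.01, Rpl32 at 4.78 ± 0.357 and Rpl26 at 4.74 ± 1.78 nRPKM, and the libraries of these 3 overlapped. Rpl32 had the narrowest range of them, from 4.32 to 5.09 nRPKM, just under the lowest Rplp1 library.

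The 5 members highest in nRPKM held 31.4 to 55.9% of a library's member reads. At the other end, 35 members were at 0 in at least 1 library, 25 had fewer than 30 reads over all 9 libraries, and Rps23rg1 had none. Rpl36 had 3 reads in all, Rps28 had 2 and Rpl19 had 6. Members fixed as landmarks were among the low ones. Rplp0, the base of the stalk and a common reference gene, had 2 to 11 reads a library and a wild-type mean of 0.421 ± 0.230 nRPKM. Rpsa, known also as the laminin receptor, had 2 to 12 reads and 0.245 ± 0.140 nRPKM. Fau and Rps27a, which are made as fusions to a ubiquitin-like protein and to ubiquitin, had 0 to 6 and 0 to 4 reads. Rpl22l1, the copy of Rpl22, had 0 to 2 reads, while Rpl22 had 18 to 65.

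**Figure D1:**
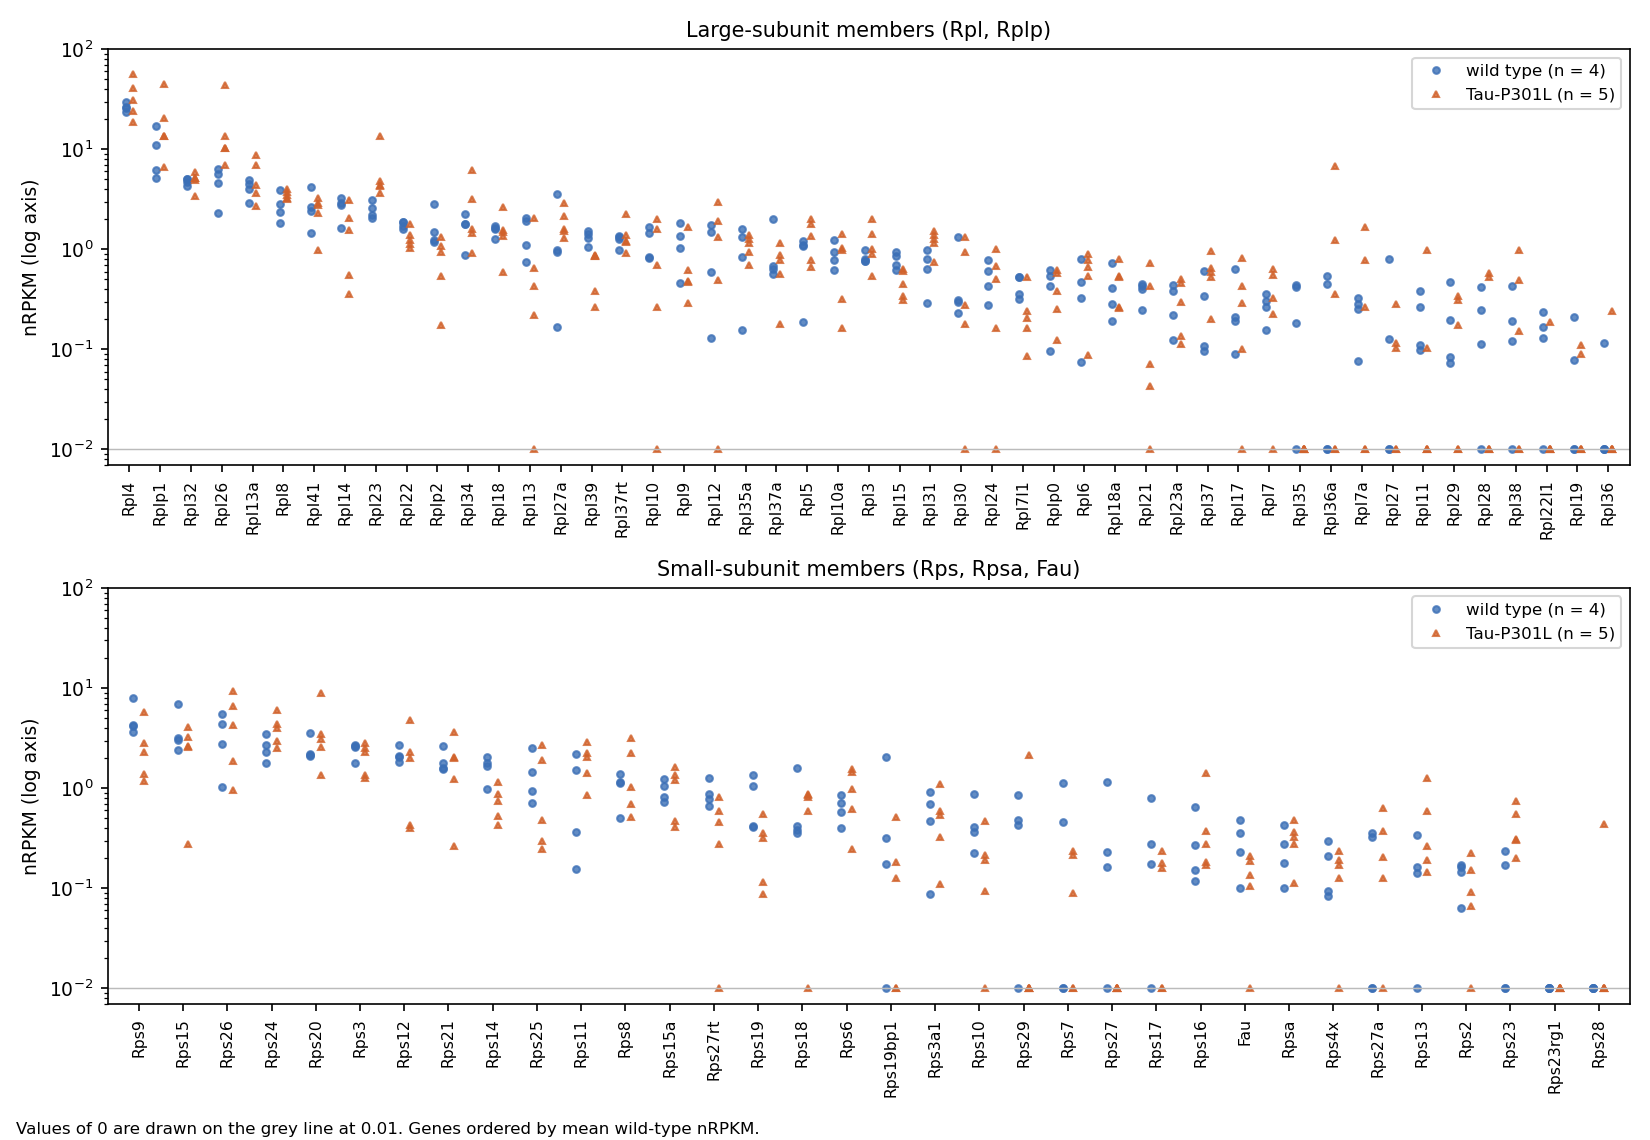
Level of 83 of the 84 members in each library, in nRPKM on a log axis, with large-subunit members above and small-subunit members below, ordered by wild-type mean. Rpl4 stands at the left at 23.8 to 29.6 nRPKM in wild type (circles), most members lie near or under 1 nRPKM, and values of 0 sit on the grey line.

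The deposited counts are of uniquely aligned reads, so the share of each mRNA that occurs in no other gene was measured. For 83 members a median of 55.5% of the 31-base words of the mRNA were found in no other annotated gene or pseudogene, against 100% for the other detected genes. The 21 members with at least 75% unique words had a median of 1.42 nRPKM, and the 33 with 50 to 75% had 0.468, the 14 with 25 to 50% had 0.407 and the 15 with under 25% had 0.524. Other detected genes in these classes had medians of 0.530, 0.311, 0.193 and 0.137 nRPKM. Spearman's rho between unique share and level was 0.27 across the 83 members, which share libraries and are not independent. Named pseudogenes numbered 318 and belonged to 64 members, whose median was 0.655 nRPKM, and the 20 members without one had 1.43. Rps9, with 83.04% unique words and no named pseudogene, was the third highest member at 5.05 nRPKM, and Rplp1, with 24.95%, was the second highest. What part reads with several alignments play in these levels was not tested.

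**Figure D2:**
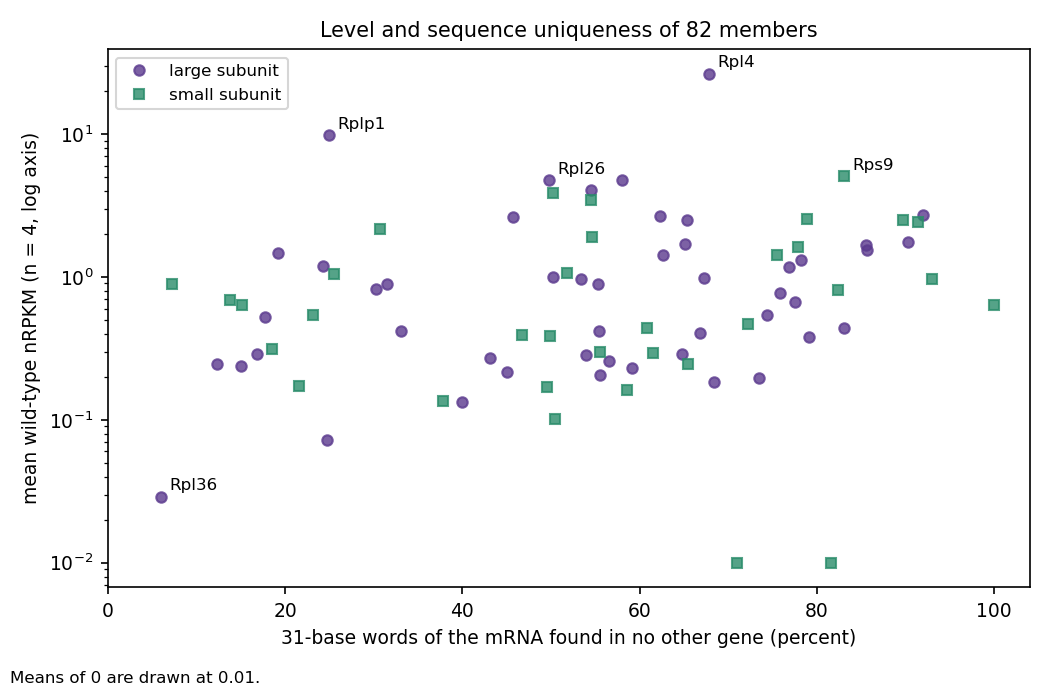
Mean wild-type nRPKM (log axis) of 82 of these 83 members against the percent of their mRNA's 31-base words found in no other gene, with large-subunit members as circles and small-subunit members as squares. The points spread widely at every unique share (rho = 0.27 over the 83), Rps9 lying at 83.04% with 5.05 nRPKM and Rplp1 at 24.95% with 9.86.

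Other lists of the translation machinery gave a frame for these levels. The 78 mitochondrial ribosomal proteins, which serve the separate ribosome of mitochondria, had a median of 0.653 nRPKM, close to the 0.730 of the cytosolic members. The 19 translation factors known for TOP mRNAs stood at 3.04, the 42 genes of rRNA synthesis and ribosome assembly at 1.36, and the 24 regulators, such as the mTOR pathway, at 2.02 nRPKM. Rack1, a protein bound to the small subunit, was at 4.87 nRPKM.

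Together the members held 0.0529, 0.0590, 0.0473 and 0.0705% of the reads of wild-type libraries 1 to 4. In Tau-P301L libraries 1 to 5 they held 0.0694, 0.0671, 0.0722, 0.0553 and 0.0629%. The 95% Wilson intervals of single libraries reached from 0.0448% to 0.0754%. The means were 0.0574 ± 0.00998% (SD, n = 4) and 0.0654 ± 0.00659% (SD, n = 5), and the groups overlapped.

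The 49 large-subunit members together held more reads than the 35 small-subunit members in every library. The log2 ratio of the summed reads was 0.96, 1.06, 1.13 and 1.02 in wild type and 0.71, 1.52, 1.81, 1.33 and 1.56 in Tau-P301L. Tau-P301L library 1 was the lowest of all 9 and the other 4 were above every wild-type library, so the groups overlapped. The means were 1.04 ± 0.07 and 1.39 ± 0.41. Rpl4 alone held 25.4 to 29.7% of the members' reads in wild type and 17.6 to 35.7% in Tau-P301L. Leaving out large-subunit members alone can only lower the ratio. Without Rpl4, Rpl26, Rplp1 and Rpl23, and with all small-subunit members kept, the log2 ratio ran from -0.119 to 0.129 in wild type. In Tau-P301L it ran from -0.254 to 0.527.

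The difference between the means was 0.35 with all members and 0.36 without Rpl4, a check chosen after the values were seen. Without Rpl4, Rpl26, Rplp1 and Rpl23, also left out after the values were seen, the difference was 0.039. Rpl26, Rpl23 and Rplp1 had the highest genotype estimates of the tested members, so this choice by itself tends to shrink the difference. Without Tau-P301L libraries 3 and 5 the difference was 0.15 with all members. Library 3 also had the highest share of reads from mitochondrially encoded genes, 23.1% against 9.30 to 20.0% in wild type, and library 5 the fewest reads; their part in the ratio was not tested.

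**Figure D3:**
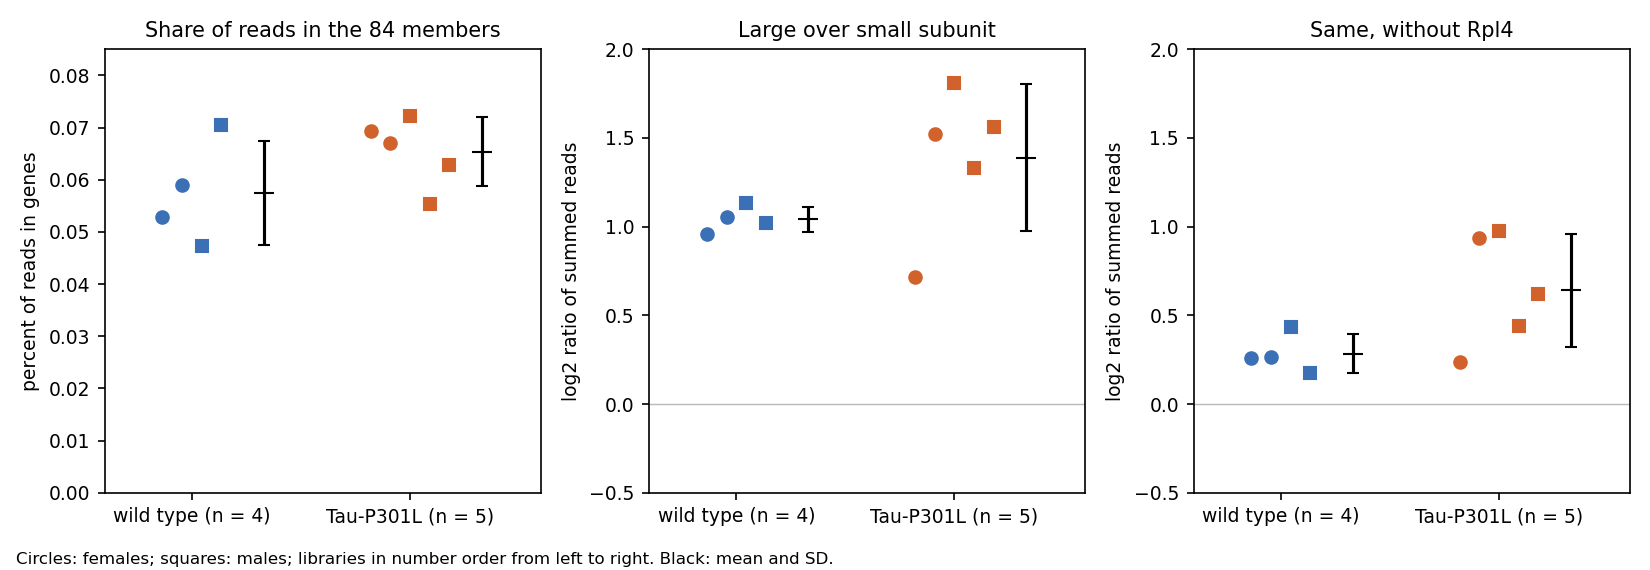
The members by library: percent of reads (left), log2 ratio of large- to small-subunit reads (middle) and that ratio without Rpl4 (right), with circles for females, squares for males and bars for mean and SD. In the middle panel 4 of the 5 Tau-P301L libraries lie above wild type, and on the right the means are 0.29 and 0.64.

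Tau-P301L was compared with wild type in a fit across all genes with sex as a covariate. The low-count filter kept 42 members (27 large, 15 small) of 12250 genes, and the other 42 members were not tested. No member was called by edgeR's quasi-likelihood test at an adjusted p under 0.05, against 1 of the 12250 genes (0.00816%). DESeq2 and limma-voom called 0 members too, DESeq2 with 20 of 13169 genes called (0.152%) and limma-voom with 1 of 12250 (0.00816%). At an unadjusted p under 0.05 there were 2 members, Rpl26 and Rpl23, both with higher estimates in Tau-P301L, against 6.35% of all tested genes in either direction and 3.56% in that direction. No member had a lower estimate at that p, against 2.79% of the genes.

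The estimates of the tested members lay on both sides of 0. Of the 42, 23 were above 0 and 19 below, with a median of 0.11 on the log2 scale, and of all tested genes 49.9% were above 0, with a median of -0.00. The 27 large-subunit members had 16 above and 11 below with a median of 0.18, and the 15 small-subunit members 7 above and 8 below with a median of -0.05. The sign of the median over all members was not stable: it was -0.03 with DESeq2 and -0.06 without the low-count filter, where 83 members entered.

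**Figure D4:**
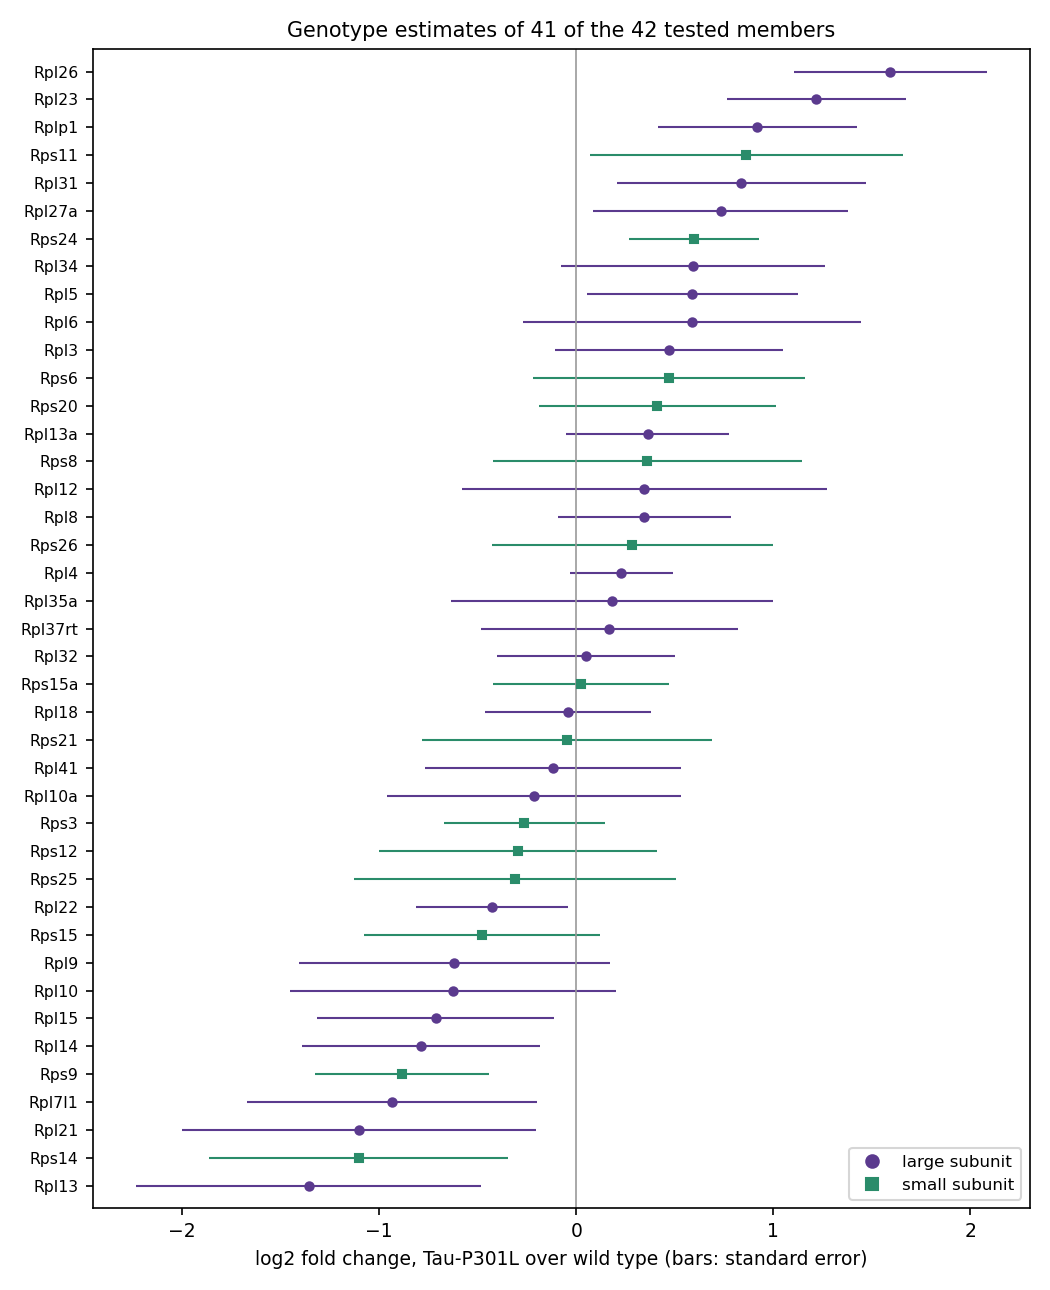
Estimated log2 fold change, Tau-P301L over wild type, of 41 of the 42 tested members with bars of 1 standard error, large-subunit members as circles and small-subunit members as squares. Estimates run from -1.36 (Rpl13) to 1.60 (Rpl26), and none passed adjustment.

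Rpl26 (chr11:68901566-68904534), a large-subunit protein near the end of the exit tunnel that also binds p53 mRNA, had the lowest p-value of the members. It held 14.3, 5.07, 12.5 and 10.4 CPM in wild type and 15.7, 23.0, 94.7, 22.9 and 29.8 CPM in Tau-P301L. Every Tau-P301L library was above every wild-type library, and library 3, the one with the highest mitochondrial share (23.1% of reads, whose part was not tested), stood far above the other 4. The log2 fold change was 1.60 (SE 0.49, adjusted p = 0.593 by edgeR and 0.164 by DESeq2), and 1.10 without library 3.

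Rpl23 (chr11:97777526-97782439), which sits at the face between the subunits and also binds Mdm2, was the other tested member whose groups did not overlap. Its wild-type libraries held 9.72, 13.5, 8.73 and 11.5 CPM and its Tau-P301L libraries 18.9, 21.2, 57.4, 15.7 and 18.7 CPM. Library 3 was again the highest. Rpl23 overlaps the small nucleolar RNA gene Snora21 by outer gene bounds, and whether reads of Snora21 enter its count was not tested. The log2 fold change was 1.22 (SE 0.46, adjusted p = 0.708 by edgeR) and 0.77 without library 3. These 2 members without overlap, of 42 tested, compare with 2.48% of all tested genes without overlap in either direction and 1.31% with Tau-P301L higher. No tested member lay wholly lower in Tau-P301L, against 1.18% of the genes.

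Other members with positive estimates overlapped between genotypes. Rplp1, of the stalk, held 33.1, 9.81, 20.9 and 12.1 CPM in wild type and 26.5, 26.2, 84.5, 12.7 and 38.8 in Tau-P301L (log2 fold change 0.92, SE 0.51, adjusted p = 0.789 by edgeR, 0.46 without library 3 and 1.45 without wild-type library 1). Rps24, a small-subunit protein mutated in Diamond-Blackfan anaemia, held 32.5, 37.9, 24.7 and 49.2 CPM and 56.1, 42.5, 83.6, 35.2 and 60.9 CPM (0.60, SE 0.33, adjusted p = 0.789 by edgeR, and 0.39 without wild-type library 3). In both genes library 3 was the highest of all 9. Rpl31, which overlaps Tbc1d8, and Rpl27a, which overlaps Snora3, both of the large subunit, had estimates of 0.84 (SE 0.63) and 0.73 (SE 0.65). That of Rpl27a was 0.28 without wild-type library 3 and 1.37 without wild-type library 2.

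Rpl4, with 336 to 724 reads a library the best measured member, had a smaller estimate. Its libraries held 154.7, 151.8, 136.6 and 174.9 CPM in wild type and 110.9, 144.1, 321.9, 179.8 and 232.6 CPM in Tau-P301L. Library 3 was the highest and library 1 the lowest of all 9, so the Tau-P301L libraries enclosed the wild-type range. Rpl4 also overlaps small nucleolar RNA genes, Snord16a among them. The log2 fold change was 0.23 (SE 0.26, adjusted p = 0.897 by edgeR). It was 0.40 without Tau-P301L library 1, 0.07 without library 3, -0.07 without libraries 3 and 5, and 0.04 without wild-type library 3.

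Rps9 (chr7:3703954-3706897) led the members with negative estimates. Its wild-type libraries held 47.7, 21.3, 24.3 and 25.8 CPM and its Tau-P301L libraries 34.3, 7.08, 16.0, 8.06 and 13.2 CPM. Tau-P301L library 1 lay inside the wild-type range and the other 4 lay below it. The log2 fold change was -0.88 (SE 0.44, adjusted p = 0.776 by edgeR), and -1.44 without Tau-P301L library 1.

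Further negative estimates rested on few reads. Rpl13, of the large subunit, held 6.69, 2.37, 6.07 and 3.57 CPM in wild type and 6.61, 2.12, 1.33, 0 and 0.692 CPM in Tau-P301L (-1.36, SE 0.88), its libraries holding 0 to 22 reads. Rps14, a small-subunit protein linked to the 5q- syndrome, had 3 to 16 reads and an estimate of -1.10 (SE 0.76). Rpl14 had 3 to 42 reads (-0.79, SE 0.60), Rpl21 0 to 23 (-1.10, SE 0.90) and the copy Rpl7l1 2 to 21 (-0.93, SE 0.74). All had an adjusted p of 0.802 or more. Leaving out 1 library moved Rpl13 to -2.07 (Tau-P301L library 1) and Rpl14 to -1.42 (Tau-P301L library 5). Rpl21 became -0.66 without Tau-P301L library 3, -0.73 without wild-type library 3, -1.72 without wild-type library 1 and -1.66 without wild-type library 2.

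Members known for roles of their own did not pass either. Rps6, the small-subunit protein phosphorylated by S6 kinases, was at 0.47 (SE 0.69), and Rpl22, which also acts outside the ribosome in lymphocytes, at -0.43 (SE 0.39). Rpl32, used often as a reference gene and overlapping Cand2, held 9.72, 10.5, 10.2 and 9.06 CPM in wild type and 10.7, 12.4, 9.78, 10.6 and 6.92 CPM in Tau-P301L, with an estimate of 0.05 (SE 0.45). Rpl6 and Rps15a, among the members that the naming rule takes for low level or low p, were at 0.59 (SE 0.86) and 0.02 (SE 0.45). Leaving out 1 library gave 0.17 (without wild-type library 3) to 0.81 (without Tau-P301L library 2) for Rps6 and 0.22 (without Tau-P301L library 4) to 1.03 (without wild-type library 4) for Rpl6. The standard errors of these genes are wide, and a change of 1 log2 unit would often be missed in this design. In simulated counts edgeR found 9.5% of the genes shifted by 1 log2 unit. It found 65.2% of those shifted by 2 and 77.3% of those shifted by 3. The shifted genes were drawn at random from all 12250 tested genes, so rates for the members named here were not measured.

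**Figure D5:**
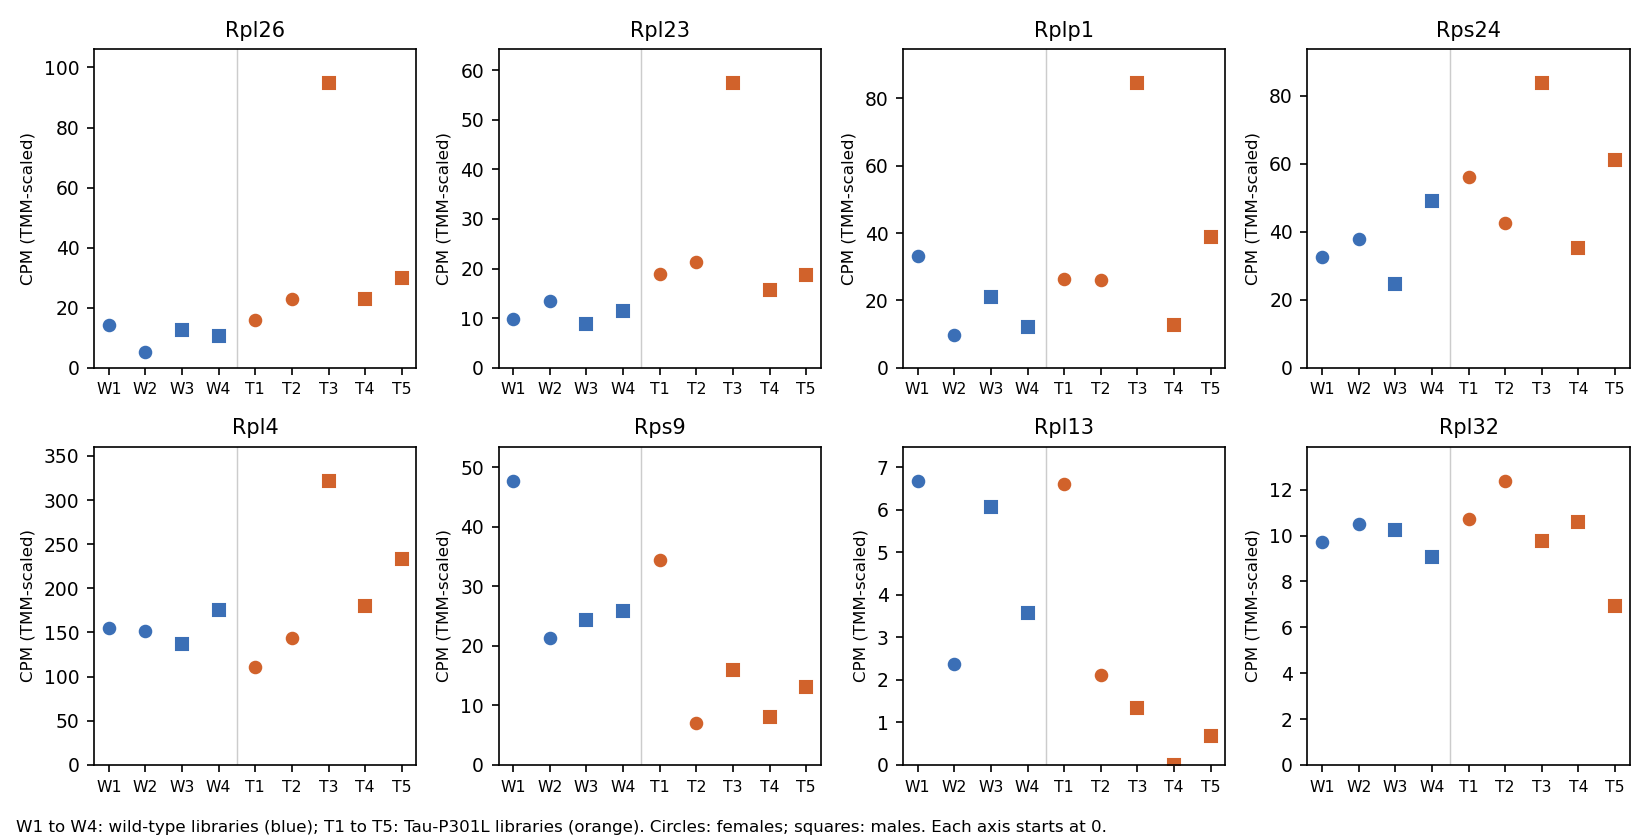
Level of 8 members in each library in TMM-scaled CPM, with wild type in blue, Tau-P301L in orange, circles for females, squares for males and every axis starting at 0. Tau-P301L library 3 (T3) is the highest library for Rpl26, Rpl23, Rplp1, Rps24 and Rpl4, and not for Rps9, Rpl13 or Rpl32.

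Of the untested members, Rplp0 had 10, 7, 9 and 2 reads in wild type and 11, 2, 7, 5 and 2 in Tau-P301L, and Rpsa 7, 4, 2 and 12 and 8, 8, 8, 2 and 3. Both overlapped between genotypes. Rpl39, of the large subunit, was the untested member whose groups did not overlap, with 2.13, 1.69, 2.28 and 2.47 CPM in wild type and 0.630, 1.42, 1.33, 0.424 and 1.38 CPM in Tau-P301L. These values stand for 1 to 9 reads a library, and they compare with 0.68% of 12502 untested genes with a read that did not overlap, 0.376% with Tau-P301L lower. Rpl36a, with 12.36% unique words, had 0 to 8 reads in 8 libraries and 30 in Tau-P301L library 3, and was singled out after its values were seen.

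Sex and the interaction of sex with genotype were tested in the same way. For males against females edgeR called 0 of the 42 members, against 6 of 12250 genes (0.049%), and DESeq2 called 0 members and 7 of 24666 genes (0.0284%). There was 1 member with an unadjusted p under 0.05, against 2.43% of all tested genes. It was Rpl21, with a log2 difference of -1.95 (SE 0.90, adjusted p = 0.9998 by edgeR) and 0 to 1 reads in the 3 Tau-P301L males. Rpl4 came next at 0.52 (SE 0.26). For the interaction edgeR called 0 members and 0 of 13302 genes (0.0%), with no member and 526 genes (3.95%) at an unadjusted p under 0.05, and DESeq2 called 0 members and 3 of 24747 genes (0.0121%). The lowest p-values were those of Rps15a at -1.71 (SE 0.83) and Rpl21 at -3.57 (SE 1.75).

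The other lists of the translation machinery, read from the same fit, also had no called gene. Among mitochondrial ribosomal proteins 46 of 78 were tested, with 21 estimates above 0, 25 below and a median of -0.05, and Mrps25 (0.80, SE 0.27) and Mrps31 (1.50, SE 0.62) had the lowest p-values. Of the 19 translation factors 17 were tested, 12 above 0 and 5 below (median 0.09), led by Eef1a1, which delivers aminoacyl-tRNAs to the ribosome, at 0.76 (SE 0.26, adjusted p = 0.683 by edgeR), and by Npm1 at 0.71 (SE 0.34). Eef1a1 held 90.9, 86.9, 77.4 and 89.0 CPM in wild type and 129.8, 126.0, 222.3, 154.8 and 108.7 CPM in Tau-P301L, with no overlap. Of all tested genes 1.31% had no overlap with Tau-P301L higher.

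Ribosome assembly genes had 37 of 42 tested, 15 above 0 and 22 below (median -0.13), with Bysl at -1.51 (SE 0.65) and Gnl3 at 0.75 (SE 0.33). The regulators had 22 of 24 tested, 14 above and 8 below (median 0.15), with the S6-kinase family gene Rps6ka1 at -0.57 (SE 0.27) and Gabpa, a transcription factor, at 0.67 (SE 0.31). Rps6ka1 held 94.2, 109.9, 94.8 and 90.9 CPM in wild type and 69.3, 86.7, 42.7, 79.3 and 45.7 CPM in Tau-P301L. Its groups did not overlap either, against 1.18% of all tested genes with Tau-P301L lower. None of the 7 genes in the list of paralogues left out by the rule passed the filter, Rpl10l and Rpl3l having no read. Rps27l and Rpl36al, the most abundant of them, had 2 to 8 and 1 to 9 reads a library.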

How the data were processed

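Each library had 1 deposited table of genes by Entrez number. Its count column holds whole reads with a unique alignment to a gene model, as deposited and per the file headers, and the second column holds the authors' RPKM values adjusted by a size factor (nRPKM), per the file headers. GSNAP and GRCm38 are named in the submitters' processing notes, with versions, annotation and strand setting not given in the sources used here. Both columns carry the same reads: over 5305 genes the largest log deviation from a constant ratio per gene was 6e-15. By outer gene bounds, 43 members overlap another annotated gene, most often a small nucleolar RNA. Exons and strand were not considered, and whether reads of overlapping genes were kept apart was not tested.

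Symbols, biotypes, positions and start windows came from RefSeq tables of GRCm38.p6, which matched 31049 of 36528 genes. Unique words were counted on the sense strand of GENCODE M21 transcripts of GRCm38, pseudogenes included. The genotype test was edgeR 4.0.16 (R 4.3.3), quasi-likelihood with TMM scaling, its default filter, robust dispersions, sex as covariate, 6 residual degrees of freedom and Benjamini-Hochberg adjustment at 0.05 over all tested genes. CPM are TMM-scaled. DESeq2 1.42.0, limma-voom (limma 3.58.1), other scalings, filters and sample sets were alternatives. Simulated counts for 12250 genes in 3 runs gave 14 false calls in all. Every pair of libraries differed by more than counting noise (smallest chi-square divided by its degrees of freedom, 10.2). Shares, ratios and medians over the members have no test.

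The members and lists were chosen with earlier results of these data known. Named members are Rplp0, Rpsa, Fau, Rps27a, Rps6, Rpl22 and Rpl22l1; those called for genotype or else the 6 of lowest p in each direction; the 5 highest and, among tested members, the 3 lowest in wild-type nRPKM; the 2 of lowest p for sex and interaction; and those whose groups do not overlap. In each other list the 2 of lowest p are named. A few genes, 1 of them a member that stays in every count and median, are not reported here by name or drawn in the plots by gene.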

Additional observations from a re-analysis of the deposited data

Results flagged for a closer look

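Of 40 groups of 4 or 5 libraries checked for a library far from the rest, 3 had one, where chance gives about 1 in 20. Rpl26 was at 94.7 CPM in Tau-P301L library 3, and the next library was at 29.8. Rpl23 was at 57.4 CPM in the same library, and the next was at 21.2. Rps9 was at 47.7 CPM in wild-type library 1, and the next was at 25.8.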

How the results depend on the processing

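No member was called for genotype, sex or their interaction under any alternative run; for genotype the smallest adjusted p of a member was between 0.0977 (no low-count filter, Rpl26) and 1 (without wild-type library 3). The median log2 fold change of the tested members, 0.11, was -0.12 in males alone and that of the large-subunit members, 0.18, was -0.07 there. Leaving out 1 library at a time gave -0.08 to 0.16 for all members, -0.01 to 0.22 for the large and -0.26 to -0.02 for the small subunit, 0.0046 to 0.0123 percentage points for the share of reads and 0.24 to 0.52 for the log2 subunit ratio. In females alone the estimates turned to 0.46 for Rpl21, -0.03 for Rpl27a, -0.27 for Rpl4 and -0.05 for Rps6. In males alone Rpl32 turned to -0.07 and Rps15a to -0.74. Without Tau-P301L libraries 3 and 5 Rpl4 turned to -0.07. Leaving out 1 library gave -0.01 to 0.14 for Rpl32 (0.05 with all) and -0.21 to 0.27 for Rps15a (0.02 with all). The cause was not tested. No paired analysis was possible because the labels give no replicate numbers shared between the groups. Depth limits the lowest members: 31 had 3 reads or fewer in at least 5 libraries.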
